A study of Mus musculus with 20 samples.

Results

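The genes described here are 9 genes of the hepatocyte, the main epithelial cell of the liver: *Alb*, *Afp*, *Ttr*, *Apoa1*, *Apob*, *Fgb*, *Hnf4a*, *Prox1* and *Cebpa*. The rule that names them uses no measured value, although the list was drawn up with earlier results of these data known, and they are 9 of the 37273 genes annotated in NCBIM37 (mm9). Each was read as its window, the gene body plus 10 kb on each side. The measure was 5-formylcytosine (5fC) in genomic DNA of mouse embryos at E11.5, captured with a biotinylated probe that reacts with the formyl group, sequenced, and reported as peaks. Of 20 libraries, 8 came from hindbrain (4 wild-type, WT, and 4 *Tdg* null, with litters A, O, Q and Z each giving 1 embryo per genotype) and 12 from heart, liver and carcass (2 WT and 2 *Tdg* null each, from litters called pair a and pair b here). *Tdg* null embryos lack the catalytic part of TDG in every cell, since a neomycin-resistance cassette stands in its place in the gene, and came from intercrosses of heterozygotes. Heart, liver and carcass of a litter and genotype came from 1 embryo, so a shift of that embryo would show in all of them. The *Tdg* null liver of pair b, which the study set aside as poor, had 228 peaks and no peak in any of the 9 windows. The *Tdg* null liver below is therefore the 1 library of pair a, and differences that involve it have no replicate check. DNA peaks measure no expression, so the tissue labels could not be checked against marker RNA.

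TDG is a DNA glycosylase that cuts out 5fC and 5-carboxylcytosine, the last products made when TET enzymes oxidise 5-methylcytosine. Base excision repair then puts back an unmodified cytosine, so 5fC marks sites of ongoing demethylation and accumulates where TDG is lacking. The hepatocyte lineage arises from the foregut endoderm under transcription factors of the FOXA, GATA, HNF4 and C/EBP families and Prox1, and the young hepatoblast soon fills the blood with alpha-fetoprotein, albumin, transthyretin, apolipoproteins and clotting factors. The liver bud is also colonised by blood-forming cells, so a piece of liver at this age is a mixture of hepatoblasts and erythroid cells.

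The number of peaks in a library limits what can be seen in any window. Peaks covered 0.0349% to 0.939% of the genome in the 10 WT libraries and 2.68% to 8.09% in the 9 *Tdg* null libraries, with 3.03% in the *Tdg* null liver. The peak files do not give the read depth behind them, and the raw reads were not used here. A 0 below means that no peak passed the authors' p cutoff of 1e-05, not that 5fC was absent.

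Sequences under peaks of the *Tdg* null liver are shown for 2 reasons. In *Alb*, *Apoa1* and *Apob* a liver peak lay across the gene's start, and the bases upstream of that start, as far as the peak reached and at most 300, are given in NCBIM37 coordinates from 5′ to 3′ with CpG in capitals. The start of *Ttr* was also under a liver peak, and its sequence is not shown here.
*Alb*, chr5:90889801-90889914, plus strand: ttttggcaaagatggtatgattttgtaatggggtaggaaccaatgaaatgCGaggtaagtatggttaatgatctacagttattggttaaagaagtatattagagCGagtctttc
*Apoa1*, chr9:46036401-46036662, plus strand: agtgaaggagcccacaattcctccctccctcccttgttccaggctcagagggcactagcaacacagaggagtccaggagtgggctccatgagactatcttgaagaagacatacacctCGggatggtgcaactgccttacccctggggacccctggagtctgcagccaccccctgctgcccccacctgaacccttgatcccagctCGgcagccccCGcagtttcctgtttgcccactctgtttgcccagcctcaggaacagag
*Apob*, chr12:7984154-7984453, plus strand: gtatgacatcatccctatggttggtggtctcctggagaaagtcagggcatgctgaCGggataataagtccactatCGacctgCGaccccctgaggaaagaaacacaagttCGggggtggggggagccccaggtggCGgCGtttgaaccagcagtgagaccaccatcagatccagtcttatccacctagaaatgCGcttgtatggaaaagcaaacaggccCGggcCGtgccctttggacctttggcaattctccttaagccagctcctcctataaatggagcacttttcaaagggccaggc
The *Alb* start lay under a peak of the liver library alone among the 9 *Tdg* null libraries, that of *Apoa1* under peaks of liver and of 1 heart, and that of *Apob* under peaks of all 9. These upstream bases held 2, 3 and 9 CpG sites.

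The second set holds the middle 300 bases of 4 peaks of the *Tdg* null liver, chosen because 3 of them lay in stretches with a peak in all 8 other *Tdg* null libraries and the fourth, in *Fgb*, in none. They are written along the strand of the gene, again with CpG in capitals.
*Afp*, chr5:90921851-90922150, plus strand: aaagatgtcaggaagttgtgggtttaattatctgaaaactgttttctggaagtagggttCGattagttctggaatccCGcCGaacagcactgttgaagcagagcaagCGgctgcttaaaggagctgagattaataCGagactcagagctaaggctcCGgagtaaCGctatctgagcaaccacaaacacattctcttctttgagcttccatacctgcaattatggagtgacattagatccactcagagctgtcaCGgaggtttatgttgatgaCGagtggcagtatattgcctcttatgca
*Hnf4a*, chr2:163401051-163401350, plus strand: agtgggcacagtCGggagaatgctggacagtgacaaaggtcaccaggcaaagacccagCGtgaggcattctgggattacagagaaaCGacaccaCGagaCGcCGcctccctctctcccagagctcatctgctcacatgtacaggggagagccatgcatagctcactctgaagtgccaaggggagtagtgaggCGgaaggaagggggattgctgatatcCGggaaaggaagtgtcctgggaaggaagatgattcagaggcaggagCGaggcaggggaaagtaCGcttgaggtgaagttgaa
*Prox1*, chr1:191972601-191972900, minus strand: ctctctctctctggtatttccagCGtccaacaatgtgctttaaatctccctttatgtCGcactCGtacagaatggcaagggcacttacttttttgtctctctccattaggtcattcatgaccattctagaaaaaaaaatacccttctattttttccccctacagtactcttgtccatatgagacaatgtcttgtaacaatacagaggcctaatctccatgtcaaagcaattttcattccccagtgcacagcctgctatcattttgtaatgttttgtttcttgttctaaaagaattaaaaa
*Fgb*, chr3:82850601-82850900, minus strand: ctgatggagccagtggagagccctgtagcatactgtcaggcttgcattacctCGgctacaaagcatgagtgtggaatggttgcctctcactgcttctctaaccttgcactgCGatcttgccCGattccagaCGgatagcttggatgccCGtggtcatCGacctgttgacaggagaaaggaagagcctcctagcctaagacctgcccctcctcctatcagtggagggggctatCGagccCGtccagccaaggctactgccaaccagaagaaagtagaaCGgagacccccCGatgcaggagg
The *Afp* and *Prox1* sequences are intronic, the *Hnf4a* sequence lies downstream of the gene in no annotated gene, and 170 of the 300 *Fgb* bases are exonic. They hold 9, 10, 3 and 10 CpG sites in the order *Afp*, *Hnf4a*, *Prox1*, *Fgb*. The middle 300 bases of the 21 liver peaks in the 9 windows held a median of 6 CpG sites, from 3 to 11, against a median of 5 over all 101344 peaks of this library.

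Over the 9 windows, which span 383363 bp once the overlap of *Alb* and *Afp* is counted once, 5fC peaks were frequent in *Tdg* null tissue and rare in WT tissue. Peaks covered 4.28%, 5.24%, 5.45% and 6.42% of these bases in the *Tdg* null hindbrains, 14.1% and 5.75% in the hearts of pair a and pair b, 8.21% and 10.7% in the carcasses, and 4.83% in the liver. The WT libraries lay between 0% and 1.20%, with the top value in the carcass of pair a. Relative to the share of the whole genome under peaks in the same library, the *Tdg* null windows held 1.43 to 1.78 times as much in hindbrain, 1.74 and 1.58 times in heart, 1.52 and 1.41 times in carcass and 1.59 times in liver. In the WT libraries this ratio ran from 0 to 1.28. Much of the *Tdg* null cover was in *Prox1*, with 17059 of 31459 peak bases in the carcass of pair a and 6400 of 18500 in the liver. The ratio without *Prox1* was not computed. Gene by gene, 4 to 6 of the 9 windows lay above the genome share in each *Tdg* null library. Of all genes, 33.4% to 43.0% did so. Over these windows the *Tdg* null liver thus lay within the range of the other *Tdg* null tissues. Over the gene bodies alone, 209253 bp, it did not: the liver had 7.66%, or 2.53 times its genome share, and the other 8 *Tdg* null libraries had 1.57 to 2.21 times, with the heart of pair a next to the liver. Summed over the bodies of all annotated genes, the liver had 1.44 times its genome share and the other 8 had 1.30 to 1.60 times. With 1 liver library this order has no replicate check. The median hepatocyte gene stood at the 57.3 to 68.8 percentile of all annotated genes in the 9 *Tdg* null libraries, and at 62.6 in the liver.

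**Figure D1:**
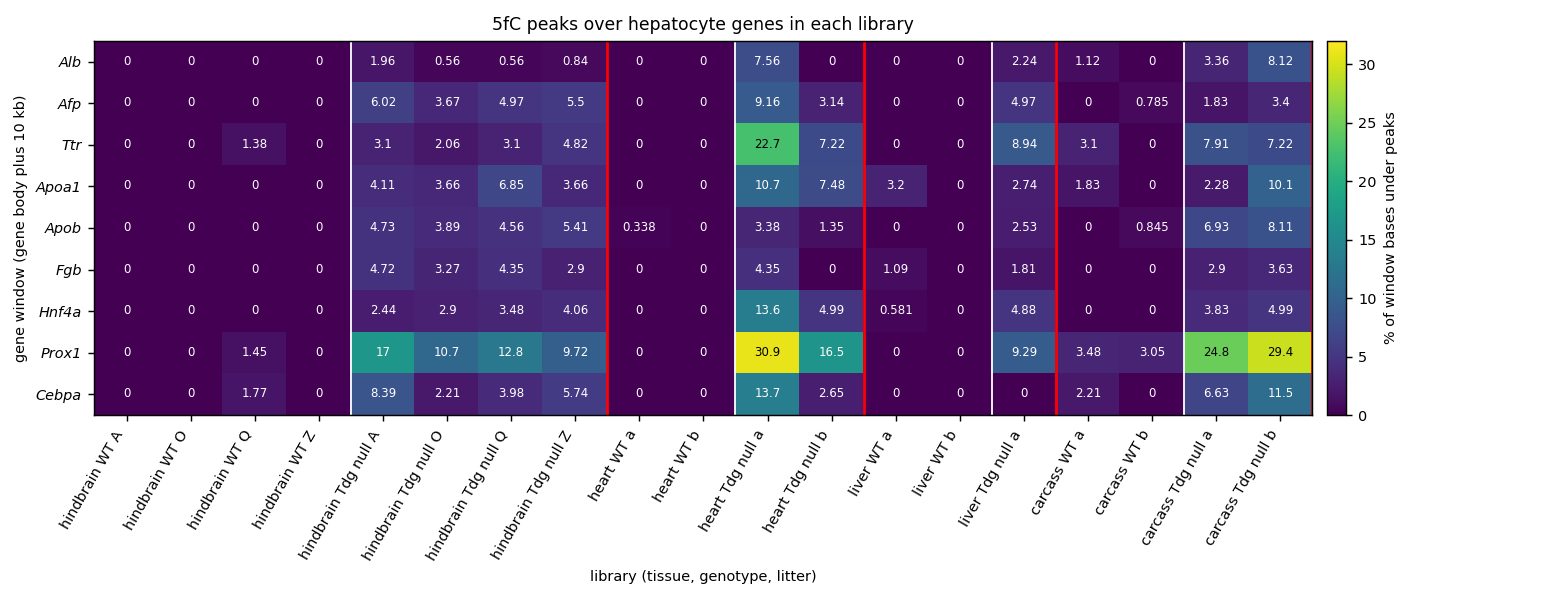
Percent of each gene window under 5fC peaks, with the 9 genes in rows and the 19 libraries in columns; colour and numbers give the percent, white lines part the genotypes and red lines the tissues. *Prox1* is the row with the most cover, up to 30.9% in the *Tdg* null heart of pair a, and *Cebpa* is 0 in all 3 liver libraries.

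In hindbrain, where no hepatocytes form, every *Tdg* null library had more window bases under peaks than every WT library in 9 of 9 genes. Over all annotated genes this held for 55.1%, and over protein-coding genes for 63.3%. The count fell to 4 over the gene body alone, to 4 with 2 kb on each side and to 5 with peaks of at least 600 bp, against 30.1%, 36.8% and 38.2% of all genes. The exact two-sided permutation test of 4 against 4 gave p = 0.0286 for each of the 9, the smallest p this design allows, and Benjamini-Hochberg adjustment over the 37273 genes gave 0.0518. None of the 37273 genes passed 0.05 after adjustment, although 20576 had an exact unadjusted p of 0.0286, of which 26 were lower in *Tdg* null. In the exact sign-flip test with embryos paired by litter, all 4 litters moved up for each gene, with p = 0.125, the smallest that 4 pairs allow.

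Both *Tdg* null hearts lay above both WT hearts in 7 of the 9 genes, against 61.2% of all genes, and both *Tdg* null carcasses above both WT carcasses in 9 of 9, against 60.5%. The exceptions in heart were *Alb* and *Fgb*, which had no peak in the heart of pair b. The *Tdg* null liver lay above both WT livers in 7 of 9, against 53.8%, with *Apoa1* and *Cebpa* as the exceptions. With 2 against 2 an exact permutation test cannot go below p = 0.333, so these are counts without a test.

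*Alb* encodes serum albumin, the main protein of blood plasma. Its window had no peak in any WT hindbrain, heart or liver. In *Tdg* null hindbrain 0.560% to 1.96% of the window was under peaks (0.980% ± 0.667, SD, n = 4), the lowest level among the 9 genes. The hearts had 7.56% and 0%, the carcasses 3.36% and 8.12%, and the liver 2.24%. The liver had 2 peaks of 400 bp, one across the start, from -114 to 285 bp, and one from 1.69 kb after it, which the heart of pair a shared. The stretch with peaks in the most libraries lay from 5.49 to 7.29 kb after the start, under peaks of 2 hindbrains, 1 heart and both carcasses of the *Tdg* null group and of the WT carcass of pair a, and not of the liver.

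*Afp* encodes alpha-fetoprotein, the albumin relative of the fetus, and follows *Alb* on chromosome 5, so that the 2 windows share 5890 bp. All 4 WT hindbrains were at 0, and the *Tdg* null hindbrains had 3.67%, 4.97%, 5.50% and 6.02% (5.04% ± 1.01, SD, n = 4). The *Tdg* null liver had 4.97%, inside the hindbrain range, the hearts 9.16% and 3.14%, and the carcasses 1.83% and 3.40%. A stretch of 1000 bp inside the gene, from 1.66 to 2.66 kb, held a peak in all 9 *Tdg* null libraries and in no WT library, although at most 8 of them shared a base. The *Afp* start itself had no peak within 250 bp in any library. The other liver peaks, near 6 and 9 kb, were shared with hindbrain libraries, and the first of them also with the heart of pair a.

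*Ttr* encodes transthyretin, the carrier of thyroxine and retinol-binding protein in blood, which the choroid plexus of the brain also makes. WT hindbrain was at 0 in 3 libraries and at 1.38% in litter Q, and *Tdg* null hindbrain had 2.06%, 3.10%, 3.10% and 4.82%. The hearts had 22.7% and 7.22%, the carcasses 7.91% and 7.22%, and the liver 8.94%. Set against the genome share of each library, the liver was the highest of the 9, at 1.53 on the log2 scale of relative cover, with the heart of pair a close by at 1.48. This scale is log2 of the window percent plus 0.1 over the genome percent plus 0.1. With 1 in place of 0.1 the liver was highest in none of the 9 genes, *Ttr* included. Peaks crossed the *Ttr* start in the liver, in both *Tdg* null hearts and in the WT carcass of pair a, and in no hindbrain library. The hindbrain libraries had their shared peak past the end of the gene, from 10.3 to 11.0 kb, in 4 of 4 *Tdg* null libraries and in WT of litter Q, and both *Tdg* null carcasses had a peak there too.

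**Figure D2:**
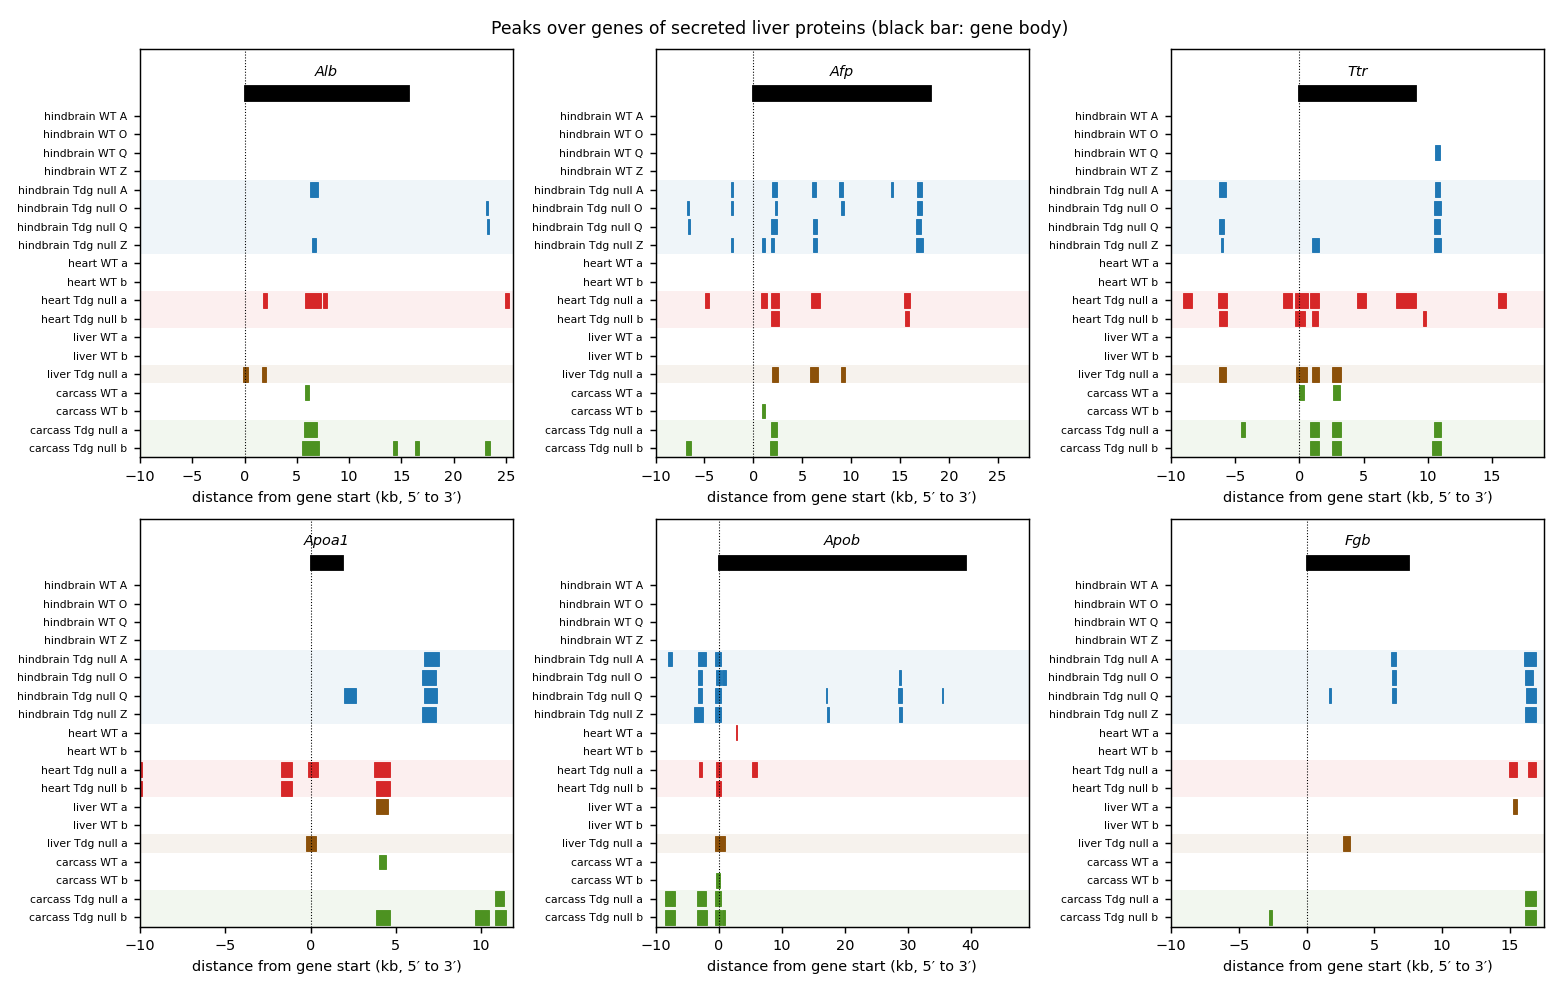
Peaks over the 6 genes of secreted liver proteins, drawn as coloured blocks by distance from the gene start in kb along the direction of transcription; rows are the 19 libraries, shaded where *Tdg* null, and the black bar is the gene body. Peaks at the dotted start line are seen in the *Tdg* null liver in *Alb*, *Ttr*, *Apoa1* and *Apob*, and in all 9 *Tdg* null libraries in *Apob*.

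*Apoa1* encodes the main apolipoprotein of high-density lipoprotein and stands in a cluster with *Apoc3*, whose gene body lies inside its window. Cover in *Tdg* null hindbrain was 3.66%, 3.66%, 4.11% and 6.85% against 0% in all 4 WT, and the hearts had 10.7% and 7.48%. The *Tdg* null carcasses had 2.28% and 10.1%, and the WT carcass of pair a had 1.83%. The hindbrain bases were not over *Apoa1*. They fell from 6.54 to 7.54 kb after the start, over *Apoc3*, in 4 of 4 libraries, with a further peak from 1.94 kb in litter Q, and within the gene body of *Apoa1* all 4 hindbrains, both carcasses and the heart of pair b were at 0. The *Tdg* null liver had a single peak of 600 bp across the start, which covered 17.9% of the gene body, and the heart of pair a covered 23.2%. WT liver of pair a had a peak of 700 bp in the *Apoc3* part of the window and none at the start, so that its 3.20% exceeded the 2.74% of its *Tdg* null litter mate.

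*Apob* encodes the structural protein of very-low-density and low-density lipoproteins, made by liver and by intestine and yolk sac. The *Tdg* null hindbrains had 3.89%, 4.56%, 4.73% and 5.41% (4.65% ± 0.625, SD, n = 4), with 0% in WT. The hearts had 3.38% and 1.35%, the carcasses 6.93% and 8.11% and the liver 2.53%. A stretch from -553 to 1146 bp around the start was under peaks of all 9 *Tdg* null libraries, with bases shared by all 9, and also under a peak of 500 bp in the WT carcass of pair b. In the liver this was the only peak of the window. A second stretch, from -3953 to -1854 bp upstream, was under peaks of 7 *Tdg* null libraries, including all 4 hindbrains and both carcasses, and not of the liver.

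*Fgb* encodes the beta chain of fibrinogen, the precursor of the fibrin clot, next to *Fga*, the gene of the alpha chain. Its hindbrain values in *Tdg* null were 2.90%, 3.27%, 4.35% and 4.72%, the hearts had 4.35% and 0%, the carcasses 2.90% and 3.63% and the liver 1.81%. The most frequent stretch lay over *Fga*, from 16.0 to 16.9 kb after the *Fgb* start, in 7 *Tdg* null libraries that included 4 hindbrains and both carcasses. The single liver peak of 500 bp, from 2.73 to 3.22 kb inside *Fgb*, overlapped no peak of any other library. Over the gene body of *Fgb* the liver had 6.62%, equal to the hindbrain of litter Q, while hearts, carcasses and WT libraries were at 0.

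*Hnf4a* encodes a nuclear receptor that maintains the hepatocyte programme, and has an upstream promoter used early and in pancreas and a downstream promoter used in liver. Its *Tdg* null hindbrains had 2.44%, 2.90%, 3.48% and 4.06% (3.22% ± 0.706, SD, n = 4), the hearts 13.6% and 4.99%, the carcasses 3.83% and 4.99%, and the liver 4.88%. WT liver of pair a had 0.581%, and every other WT library was at 0. No liver peak lay at its upstream start. The transcripts Hnf4a-001 and Hnf4a-201 start 40.4 kb after the gene start. A liver peak of 1100 bp began at 40357 bp and covered these starts, both *Tdg* null hearts had peaks within 250 bp of them, and the WT liver peak of 500 bp lay inside the same liver stretch. No hindbrain or carcass library had a peak there. The start of Hnf4a-004, at 43.3 kb, was instead under peaks of all 4 hindbrains, both carcasses and the liver of the *Tdg* null group, and of neither heart. The longest liver peak of the gene, of 1500 bp, lay in the stretch from 48.1 to 49.7 kb. It was shared with 2 hindbrains, both hearts and 1 carcass of the *Tdg* null group. The stretch past the end of the gene, from 68.1 to 69.2 kb, was common to all 9.

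*Prox1* encodes a homeodomain factor needed for hepatoblasts to migrate out of the liver bud, and it is also used in lymphatic endothelium, lens, heart muscle and neural progenitors. It had the most cover of the 9 genes in every *Tdg* null library, with 9.72%, 10.7%, 12.8% and 17.0% in hindbrain (12.6% ± 3.21, SD, n = 4), 30.9% and 16.5% in heart, 24.8% and 29.4% in carcass and 9.29% in liver. The WT values were 1.45% in the hindbrain of litter Q, 3.48% and 3.05% in the carcasses and 0% in the other 7. The liver thus had the lowest *Prox1* percent of the 9 *Tdg* null libraries, and its relative cover of 1.58 ranked 8 of 9. An intronic stretch of 2900 bp, from 20.3 to 23.2 kb, was under peaks of all 9, and both WT carcasses had a peak of 2100 bp there with the same start and end. The other 4 liver peaks of *Prox1* were shared with hearts, and 2 of them also with hindbrains and both carcasses. No library had a peak within 250 bp of its start.

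*Cebpa* encodes C/EBP alpha, a basic leucine zipper factor of hepatocytes, fat cells and myeloid cells, in a gene without introns. The *Tdg* null hindbrains had 2.21%, 3.98%, 5.74% and 8.39% (5.08% ± 2.64, SD, n = 4), the hearts 13.7% and 2.65% and the carcasses 6.63% and 11.49%, while all 3 liver libraries were at 0. WT of litter Q had 1.77% and the WT carcass of pair a 2.21%. Every peak of the window lay outside the gene. The gene body, with 7.14 CpG sites per 100 bp, was at 0 in all 19 libraries. The stretch in the most libraries lay from 4.79 to 5.69 kb after the start, in all 4 hindbrains and both carcasses of the *Tdg* null group and in neither heart.

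**Figure D3:**
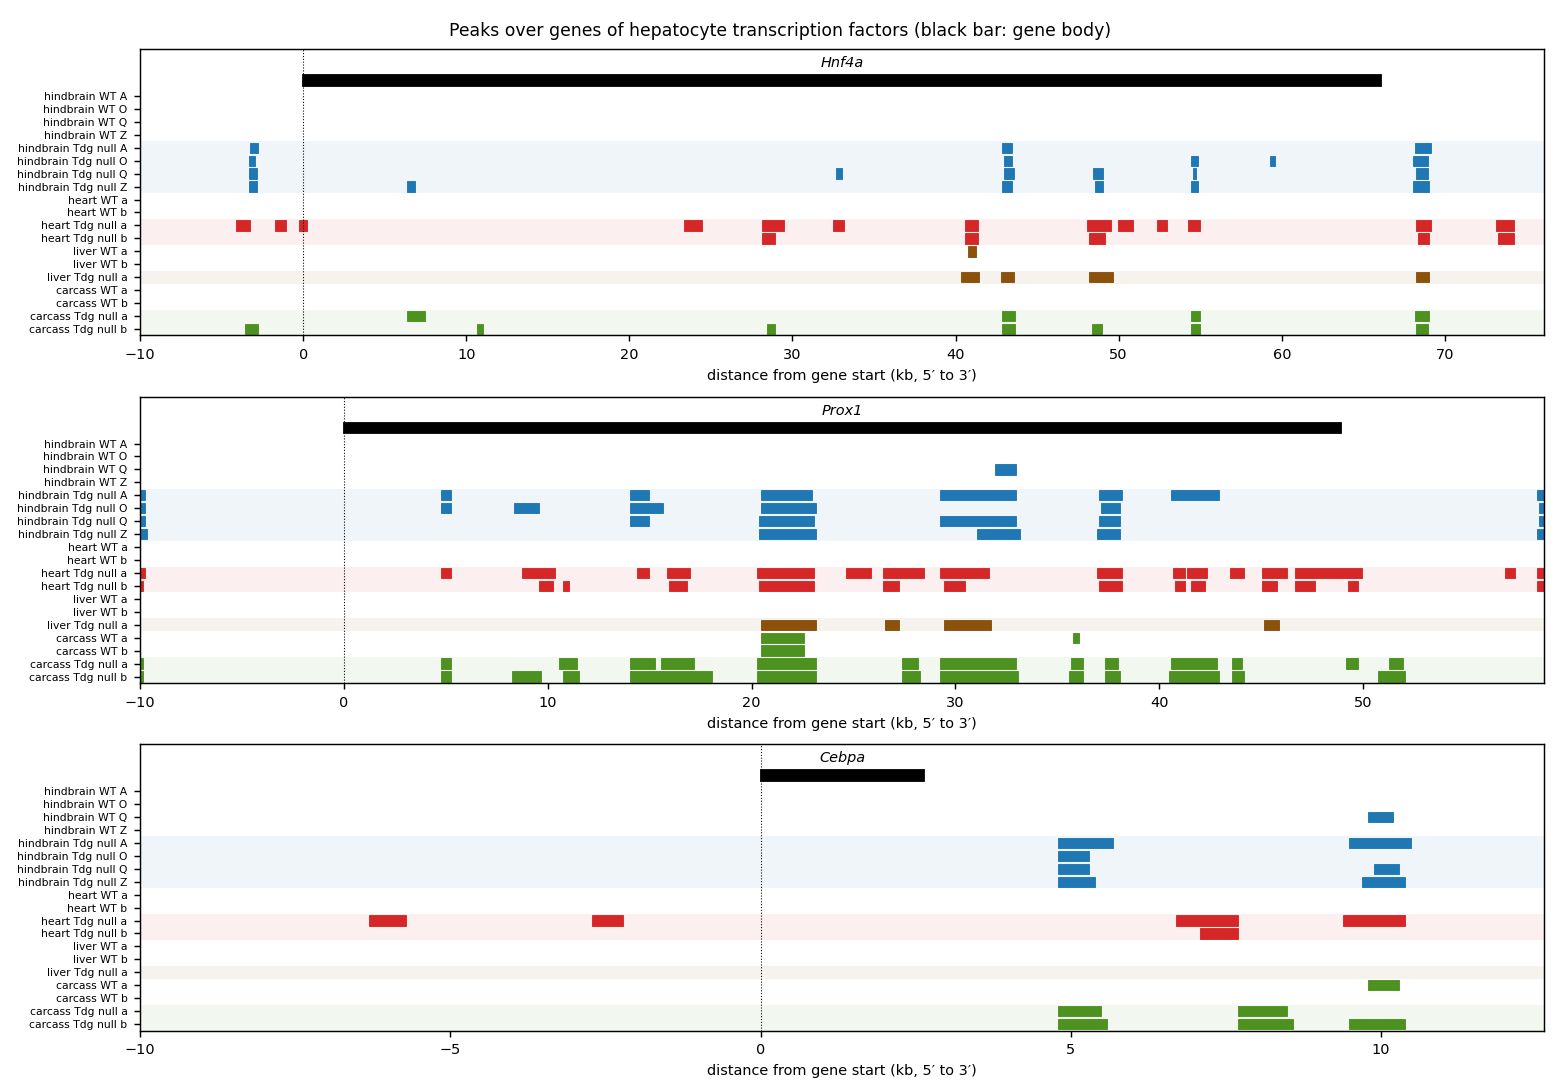
Peaks over the 3 transcription factor genes, drawn as in the map of the secreted proteins, with distance from the gene start in kb on the horizontal axis and the 19 libraries in rows. *Prox1* carries many peaks over its body in hearts and carcasses, none of them in the first 4.76 kb, *Hnf4a* shows the liver and heart peaks near 40 kb beside the hindbrain and carcass peaks near 43 kb, and *Cebpa* has none over its body.

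The question whether liver differs from the other *Tdg* null tissues at its own genes was put to relative cover, which sets each window against the genome share of its library. The liver ranked highest of the 9 *Tdg* null libraries in *Ttr* alone, 1 of 9 genes, against 11.6% of all annotated genes. It ranked 2 of 9 in *Afp* and *Hnf4a*, 3 in *Alb*, 5 in *Fgb*, 7 in *Apob*, 8 in *Apoa1* and *Prox1* and 9 in *Cebpa*. The count depended on the flanks. Over the gene body alone, the liver ranked highest in 5 of 9, namely *Afp*, *Ttr*, *Apoa1*, *Fgb* and *Hnf4a*, against 8.24% of all genes. There its relative cover was 1.75 in *Afp*, 2.71 in *Ttr*, 2.52 in *Apoa1*, 1.10 in *Fgb* and 0.74 in *Hnf4a*. The nearest other library was 1.66, 2.26, 1.51, 0.89 and 0.55 in the same genes, and the spread between liver embryos is not known from 1 library. In *Apoa1* and *Fgb* the rank rested on 1 liver peak each. A gene without a liver peak in its body cannot rank the liver highest, which lowers the 8.24%. Over the body the liver lay above both WT livers in 8 of the 9 genes, against 31.4% of all genes. The share among protein-coding genes alone was not computed. Without the hindbrain of litter A the count over the full windows was 2, with *Afp* added, against 12.3% of all genes. Without the heart of pair a it was also 2, with *Hnf4a* added, against 12.9%. With a pseudocount of 1% it was 0, against 10.7%. With the mean of both *Tdg* null livers it was 0, and no share of all genes is given. The liver of pair b had no peak in any of the 9 windows, so its values there are the floor of the scale. That 0 therefore decides nothing.

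**Figure D4:**
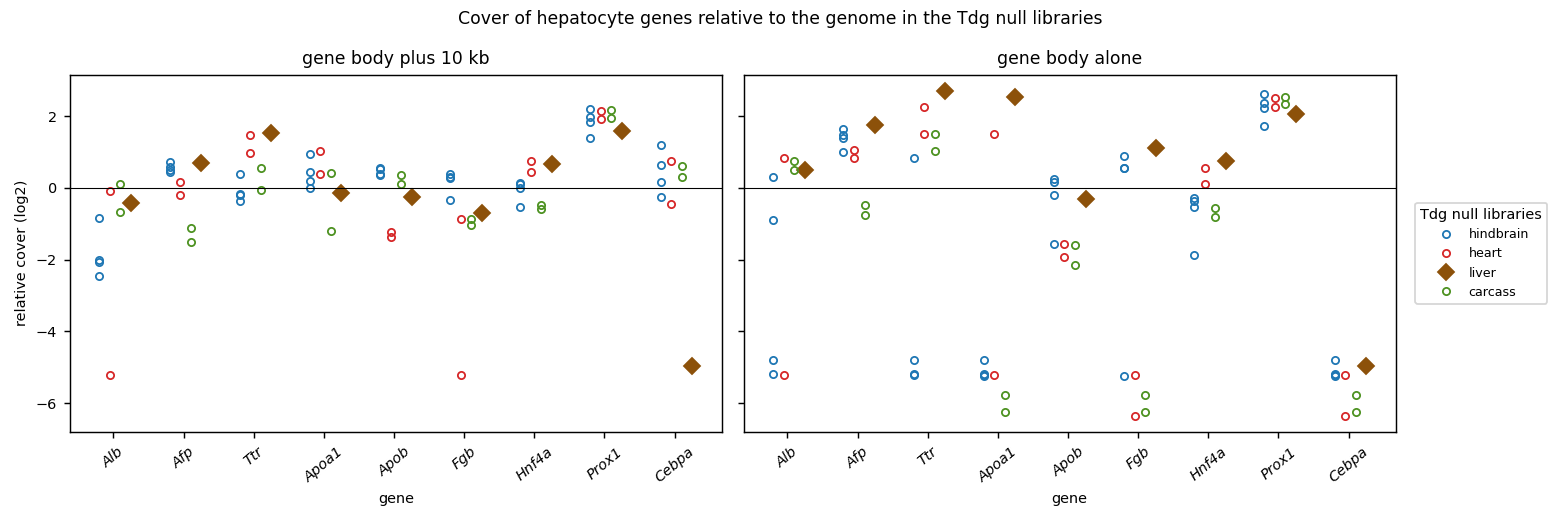
Relative cover of the 9 genes on the log2 scale in the *Tdg* null libraries, over the gene body plus 10 kb in one panel and over the gene body alone in the other; each point is a library, with the liver as a filled diamond. Over the windows the liver is highest in *Ttr*, and over the gene bodies also in *Afp*, *Apoa1*, *Fgb* and *Hnf4a*; points of -4.79 and lower have no peak.

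Peaks at gene starts were counted apart from the windows. A peak of the *Tdg* null liver lay within 250 bp of the annotated gene start in 4 of the 9 genes (*Alb*, *Ttr*, *Apoa1* and *Apob*), against 4.93% of protein-coding genes. It also did so in 4 of 46 other hepatocyte genes and in 0 of 14 erythroid genes taken from lists. The heart of pair a also had 4 (*Ttr*, *Apoa1*, *Apob* and *Hnf4a*), against 13.7%, and the heart of pair b had 2, against 6.33%. Each *Tdg* null hindbrain and carcass had 1, which was *Apob*, against 5.15% to 10.4%. In WT the carcass of pair a had *Ttr* and that of pair b *Apob*, and no other library had any.

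In WT embryos both livers ranked above the 8 other WT libraries in relative cover in 0 of the 9 genes, against 1.05% of all genes. WT liver of pair b had no peak in any of the 9 windows, so its values are the floor of the scale and have no order. WT liver of pair a had 3 peaks, 700 bp in the *Apoa1* window, 300 bp in that of *Fgb* and 500 bp in that of *Hnf4a*, and without pair b the count was 3, these same genes, against 12.8% of all genes. Over all WT libraries the windows held 17 peaks, 3 in hindbrain, 1 in heart, 3 in liver and 10 in carcass. Of these, 16 overlapped a peak of some *Tdg* null library, 12 one of the same tissue and 10 one of the same tissue and litter. The exception was a peak of 200 bp inside *Apob* in the WT heart of pair a.

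The peaks of the 9 *Tdg* null libraries merged into 89 distinct stretches, of which 57 held peaks of at least 2 libraries and 4 of all 9, in *Afp*, *Apob*, *Hnf4a* and *Prox1*. The heart of pair a, the library with the most peaks, alone accounted for 18 of the 32 stretches seen in 1 library. The liver had a peak in 20 stretches. It shared 15 of them with a heart, 11 with a hindbrain and 10 with a carcass, and 2 were its own, at the *Alb* start and in *Fgb*. These counts carry the different numbers of peaks of the tissues, and heart and liver of pair a share an embryo.

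Summed over the genes, introns held 59.4% of the *Tdg* null peak bases, exons 8.22%, the 1000 bp upstream of gene starts 2.74%, and the upstream and downstream flanks beyond them 10.6% and 19.0%. In the windows themselves these classes were 45.0%, 8.72%, 2.31%, 20.8% and 23.1%. In the liver introns held 75.2%, exons 11.4%, upstream 1000 bp 6.37%, and the flanks 2.70% and 4.32%. Peak bases had a higher CpG density than the rest of the window in 7 of 9 genes. The same count over all genes was not made, so it cannot be read as particular to these genes. Summed over the genes, the density was 1.58 CpG per 100 bp under *Tdg* null peaks, 1.95 under those of the liver and 1.16 outside. The exceptions were *Cebpa*, with 1.44 under and 2.60 outside, and *Apoa1*, with 1.21 and 1.25.

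**Figure D5:**
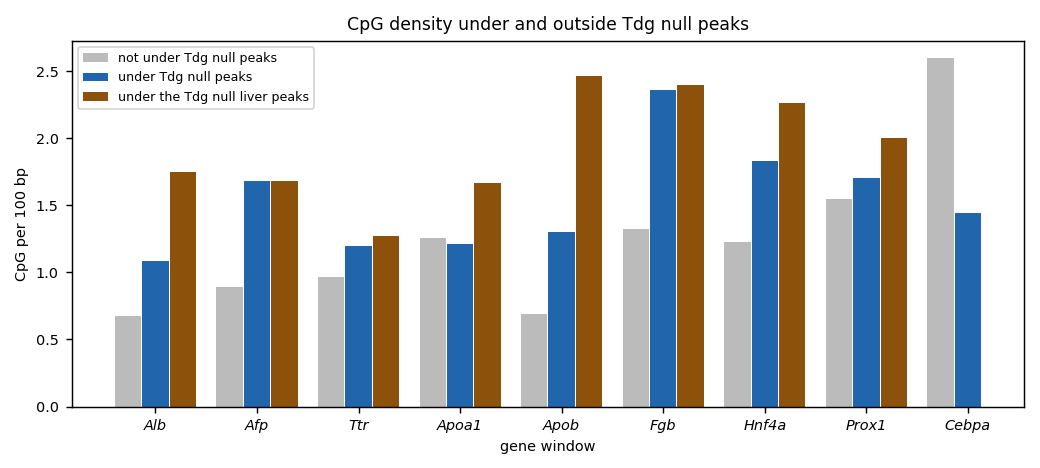
CpG sites per 100 bp in each gene window outside *Tdg* null peaks, under the peaks of any *Tdg* null library and under those of the *Tdg* null liver. Blue bars exceed grey bars in 7 of 9 genes, and *Cebpa*, which has no liver peak and so no bar for it, shows the reverse, as does *Apoa1* by a small margin.

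Of 47 other hepatocyte genes on a list of secreted proteins, enzymes and factors, 46 were found in the annotation. All 4 *Tdg* null hindbrains lay above all WT in 31 of them, both hearts in 36, both carcasses in 33 and the liver above both WT livers in 30, where the shares of all genes were 55.1%, 61.2%, 60.5% and 53.8%. The liver ranked highest in relative cover in 8 of 46, against 11.6% of all genes, and both WT livers in 1, against 1.05%. None passed the adjusted hindbrain test. The median percent of the window in the *Tdg* null liver was 2.40% over these genes, 2.74% over the 9 and 1.19% over all genes. In *Tdg* null hindbrain, as the mean of 4 libraries per gene, the medians were 4.70%, 4.57% and 2.38% in the same order. Both tissues thus had more cover over the 2 lists than over all 37273 annotated genes. Of these 22367 are protein-coding, and a median over them alone was not computed. On a list of 14 erythroid genes that were found of 16, the liver ranked highest in 2, against the same 11.6%, and the median was 1.46% in liver and 2.58% in hindbrain.

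The 5 other hepatocyte genes with the most cover in the *Tdg* null liver were *Dlk1*, *Igfbp1*, *Pck1*, *Tbx3* and *Nr5a2*. *Dlk1*, a membrane protein that marks hepatoblasts, had 20.3% in liver, 5.57% to 14.1% in hindbrain, 18.4% and 0% in heart and 20.3% and 30.8% in carcass. *Igfbp1*, a secreted binding protein of insulin-like growth factors, had 16.2% in liver, 7.33% to 11.0% in hindbrain, 22.3% and 7.74% in heart and 19.4% and 32.2% in carcass. The carcasses thus had as large a percent of these windows under peaks as the liver or a larger one. In relative cover the liver ranked highest of the *Tdg* null libraries in *Dlk1*, *Igfbp1* and *Tbx3*, and not in *Pck1* or *Nr5a2*. These 5 genes were picked by their cover in that same library, so their ranks support nothing about liver. Over the whole list the liver ranked highest in 8 of 46, against 11.6% of all genes. *Pck1*, an enzyme of gluconeogenesis, had 11.1% in liver and 3.81% in WT liver of pair a, and its carcasses had 15.9% and 20.1%. *Tbx3*, a T-box factor that the hepatoblast needs to expand, had 9.10% in liver, 10.6% and 2.64% in heart and 6.17% and 5.29% in carcass, with 0% in 3 of 4 hindbrains. *Nr5a2*, a nuclear receptor of endoderm, had 8.04% in liver, 19.3% and 7.75% in heart and 14.9% and 20.5% in carcass. *Apoc3*, inside the *Apoa1* window, had 2.64% in liver against 3.08% in WT liver of pair a, and 8.37% to 11.45% in hindbrain.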

How the data were processed

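5fC was pulled down from DNA of 4 tissues of WT and *Tdg* null mid-gestation embryos. The authors trimmed reads with Trim Galore, aligned them with Bowtie2 to NCBIM37 and called peaks per library with MACS in SeqMonk (p cutoff 1e-05, fragments of 200 bp). The deposited values are peak starts and ends, taken as 1-based inclusive positions in steps of 100 bp. These files give no read count, height or depth, and the raw reads were not used here. More peaks in a library raise the cover of any window, so relative cover divides by the genome share of the library (pseudocount 0.1%).

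Peaks on 21 chromosomes were intersected with windows of the GENCODE annotation of NCBIM37, using Python 3.11.15, numpy 2.4.6, pandas 2.3.3 and scipy 1.17.1 (matplotlib 3.10.9 for figures). Window percents of hindbrain were compared by two-sided exact permutation tests, adjusted by the Benjamini-Hochberg method over all genes, on code tested on simulated data. With few embryos, these p-values only rank the observed split among the possible relabellings of these samples. In the exact permutation test of 4 against 4, any complete separation gives p = 0.0286, whatever the spread. The numbers that pair embryos are litters given by the labels. The correlation of deviations from the group means within a litter was -0.05 (A), 0.03 (O), 0.03 (Q) and 0.01 (Z) over all gene windows.

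The 9 genes, the lists and the tests were chosen with earlier results of these data known. Named were all 9 genes, the 5 other hepatocyte genes with most cover in the *Tdg* null liver and those inside a window. Per gene, at least a stretch in the most *Tdg* null libraries and the longest liver peak were named. Sequences upstream of starts were chosen after their values were seen. Of the 47 and 16 listed genes, 46 and 14 had a match, and results for some of them by name are not reported here. Alternatives were peaks of at least 600 bp, other flanks (0, 2 and 20 kb), peak midpoints, a pseudocount of 1%, the median gene as expectation, merging of peaks within 200 bp, each library left out, pairing by litter and the set-aside liver included.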

Additional observations from a re-analysis of the deposited data

Results flagged for a closer look

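Of 18 groups of 4 hindbrain libraries, 1 per gene and genotype, 4 held a library far from the others. WT of litter Q was such a library in *Ttr*, *Prox1* and *Cebpa*, with 1.38%, 1.45% and 1.77% of the window under peaks against 0% in the other 3. With the other 3 tied at 0 any peak sets a library apart, so the rate of about 1 in 20 groups that chance gives does not apply to these. This library had 21606 peaks, where the other WT hindbrains had 1563 to 8989, and its part in these values was not tested. The *Tdg* null hindbrain of litter Q was far from the others in *Apoa1*, at 6.85% against 3.66% to 4.11%, and had a second peak from 1.94 to 2.64 kb after the start.

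In *Apoa1* the *Tdg* null liver of pair a was below its WT litter mate by -0.457 percentage points, while all other tissues were above WT in every litter. The difference between tissues was not tested, since 1 litter gives the liver value.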

How the results depend on the processing

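The count of 9 genes with all *Tdg* null hindbrains above all WT was 5 with peaks of at least 600 bp, 4 with the gene body alone, 4 with 2 kb, 7 with peak midpoints and 9 with 20 kb, against 38.2%, 30.1%, 36.8%, 50.7% and 66.2% of all genes. Without any 1 hindbrain library it was 9, against 55.2% to 59.3% of all genes. It was also 9 in the replicate block by litter (paired), where no share of all genes is given. The hindbrain differences were above 0 in 123 of 126 combinations of gene and alternative and 0 in the other 3. Their adjusted p of 0.0518 was 0.0431 with flanks of 20 kb. A test of only the genes with a hindbrain peak, added after the data were seen, supports nothing here, since 6 of the 9 have such a peak in *Tdg* null libraries alone. The count of genes in which the *Tdg* null liver ranked highest, 1, was 2 with peaks of at least 600 bp, 5 with the gene body alone, 4 with 2 kb, 3 with the median gene as expectation, 0 with a pseudocount of 1%, 0 with the mean of both *Tdg* null livers, and 1 to 2 with 1 library left out. The backgrounds of all genes were 10.7%, 8.24%, 10.4%, 43.9% and 10.7% in the first 5 of these. None is given for the mean of both livers, where the liver of pair b had no peak in the windows. With 1 library left out they were 11.9% to 28.5%. The count for WT livers, 0, was 0 to 3 with 1 library left out, against 1.07% to 12.8% of all genes. It was 3 without the liver of pair b. Without the hindbrain of litter Z the count was 2, *Fgb* and *Hnf4a*, against 6.61% of all genes. These 2 rank the liver of pair b among libraries with no peak in these windows, which have no order. The summed liver percent of 4.83 was 7.66 over gene bodies and 7.01 with 2 kb. The counts for heart (5 to 9, against 37.5% to 74.1% of all genes), carcass (6 to 9, against 35.1% to 70.3%) and liver above WT (5 to 9, against 31.4% to 63.2%) stayed within 1.5 times their main values. The cause of these shifts was not tested. Merging peaks within 200 bp gave 311 peaks. The read depth, which was not used here, the single liver library and the peak cutoff limit every count of 0.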
